A study of Saccharomyces cerevisiae with 8 samples.

Results

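Chaperones of the cytosol, the endoplasmic reticulum (ER) and the mitochondrial matrix of Saccharomyces cerevisiae were followed through loss of mitochondrial DNA (mtDNA) and through overexpression of PDE2 or TIP41. They were chosen as a list of 35 gene names, found among the 7105 genes of the expression table. The list holds 27 cytosolic genes, counting the regulator HSF1 and the polyubiquitin gene UBI4, 6 genes for matrix proteins (SSC1, MDJ1, MGE1, HSP60, HSP10 and HSP78) and 2 genes for ER proteins (KAR2 and LHS1). All 35 were found and all 35 passed the filter on low counts, which kept 5832 genes.

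The expression table covers 8 cultures of BY4743, a diploid yeast strain with the S288C background, grown in synthetic complete medium without uracil and harvested in logarithmic phase. All cultures carried a high-copy 2µ-URA3 plasmid, with 2 cultures in each of 4 groups. The ρ+ vector group kept its mtDNA and had the empty plasmid and no ethidium bromide. The ρ0 vector, ρ0 TIP41 and ρ0 PDE2 groups had been cultured with 25 µg/ml ethidium bromide for 24 h to remove mtDNA, and carried the empty plasmid, a plasmid with TIP41, whose product acts in an arm of the TORC1 pathway, or a plasmid with PDE2, whose product hydrolyses cAMP and so lowers protein kinase A (PKA) activity. Ethidium bromide was present in every ρ0 culture and in no ρ+ culture, so its effects and those of mtDNA loss cannot be told apart. No ρ+ culture carried a TIP41 or PDE2 plasmid, so the overexpressions were compared with the vector within ρ0 cells. Plasmid copy number can differ between cells of a culture, and each library is an average over such a culture.

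Libraries held 1389579 to 4884282 fragments in genes, with both extremes in the ρ+ vector group, and log2 levels of replicates correlated at 0.972 to 0.978. TIP41 stood at 759 and 600.3 CPM in its own libraries against 41.2 to 67.5 in the other 6, and PDE2 at 581 and 639 CPM against 114 to 184. The 8 mtDNA-encoded genes had 1 fragment in all 8 libraries together, ρ+ libraries included, and could not check the labels.

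Chaperones bind unfolded or misfolded chains and keep them from aggregating. Hsp70 proteins work in cycles of ATP hydrolysis that J proteins stimulate and exchange factors reset, Hsp90 proteins finish the folding of kinases, receptors and other clients with a set of co-chaperones, and Hsp104 pulls chains out of aggregates. In yeast the transcription factor Hsf1 drives many cytosolic and some mitochondrial chaperone genes through heat-shock elements, Msn2 and Msn4 act through stress response elements under the restraint of PKA, and Hac1 drives ER chaperone genes through unfolded protein response elements. Nearly all mitochondrial proteins are made in the cytosol and imported, and the matrix Hsp70 takes part in pulling them in.

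These elements were searched by their letters, on both strands, in the 500 bases before the start codon of each gene. A heat-shock element was taken as 3 alternating GAA and TTC triplets with 2 bases between neighbours, a stress response element as AGGGG or CCCCT, and an unfolded protein response element as CAGCGTG or CACGCTG. Overlapping matches to the same element were counted separately, and long matches of the heat-shock element hold several. The heat-shock element was found upstream of 15 of the 35 chaperone genes (42.9%), and upstream of 89 of 6000 genes (1.48%) in the genome. A stress response element lay upstream of 13 of the 35 chaperone genes and of 2044 of the 6000 (34.1%). An unfolded protein response element lay upstream of STI1, KAR2 and LHS1, and of 139 of the 6000 (2.32%). The sites below are a selection, shown for genes that passed in at least 1 comparison or under an alternative, with SSA1, HSP60 and KAR2, which passed in none, as relatives or partners of those genes. They were read from the RefSeq R64 genome, 5′ to 3′ on the strand of the gene, with the matched bases of the element in capitals. For the heat-shock element the capitals are its GAA and TTC triplets.
HSP104 (chrXII:88309-88350, plus strand): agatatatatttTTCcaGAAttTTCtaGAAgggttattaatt
HSP42 (chrIV:806366-806407, plus strand): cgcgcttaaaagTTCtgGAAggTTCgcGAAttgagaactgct
BTN2 (chrVII:772098-772139, plus strand): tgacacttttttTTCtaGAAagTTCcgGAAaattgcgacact
SIS1 (chrXIV:619875-619921, minus strand): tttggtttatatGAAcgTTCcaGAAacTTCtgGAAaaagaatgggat
SSA1 (chrI:141766-141807, minus strand): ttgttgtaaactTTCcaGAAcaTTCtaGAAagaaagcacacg
SSA2 (chrXII:97694-97730, minus strand): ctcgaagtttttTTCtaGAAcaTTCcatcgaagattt
HSP78 (chrIV:974461-974502, minus strand): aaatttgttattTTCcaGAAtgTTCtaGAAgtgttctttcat
HSP60 (chrXII:665188-665224, minus strand): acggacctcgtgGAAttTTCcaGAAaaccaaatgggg
HSP10 (chrXV:370980-371016, minus strand): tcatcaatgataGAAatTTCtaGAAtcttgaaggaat
KAR2, unfolded protein response element (chrX:381155-381185, plus strand): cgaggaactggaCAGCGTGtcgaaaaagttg
LHS1, unfolded protein response element (chrXI:296319-296349, plus strand): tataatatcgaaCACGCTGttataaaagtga

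The longest of these runs, upstream of SIS1, holds 5 triplets in alternation, the runs of HSP104, HSP42, BTN2, SSA1 and HSP78 hold 4, and those of SSA2, HSP60 and HSP10 hold 3. KAR2 and UBI4 also had 2 overlapping heat-shock element matches each, which are not printed. Heat-shock and stress response elements were found together upstream of 5 of the genes, HSP104, SSA1, HSP42, UBI4 and HSP78. A match is a description of the letters and no evidence that a factor binds there, and the lack of one does not show that the element is absent.

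**Figure D1:**
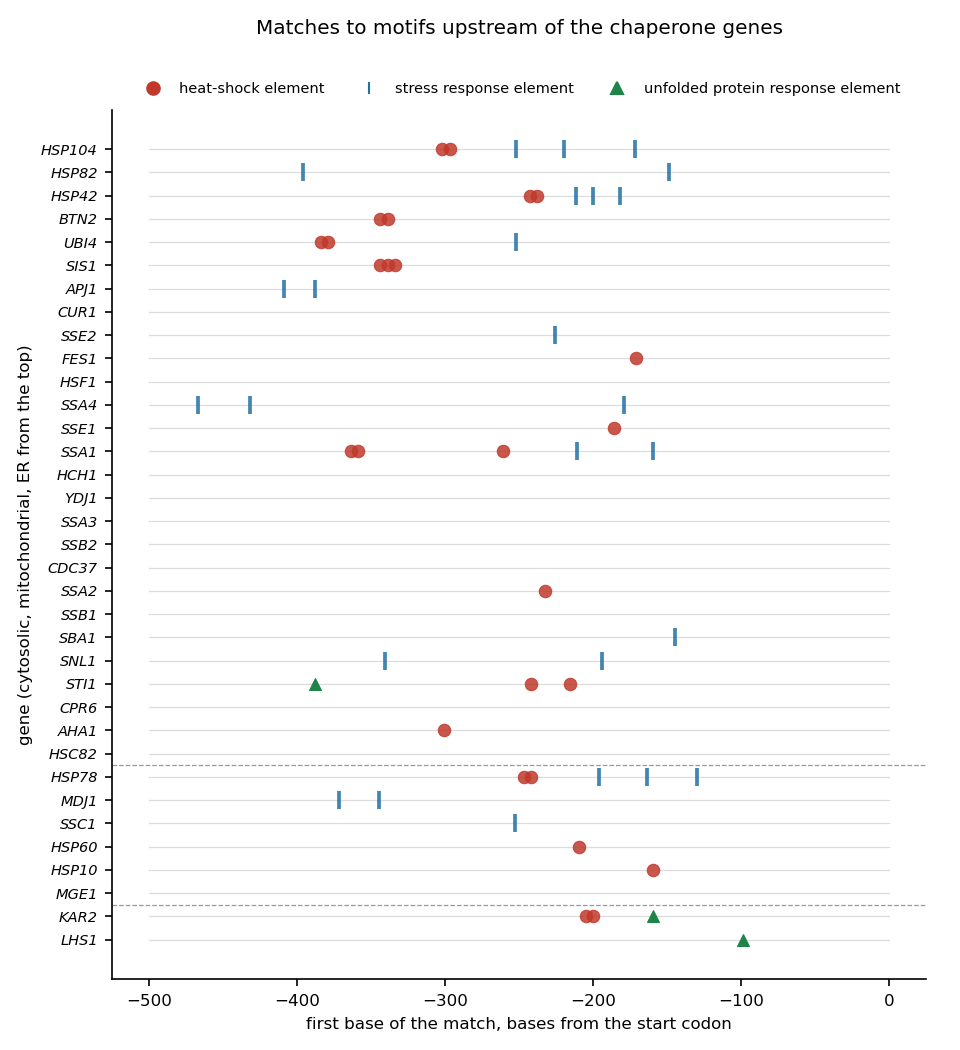
Matches to the heat-shock element (circles), the stress response element (bars) and the unfolded protein response element (triangles) by distance in bases from the start codon, for each of the 35 genes on the vertical axis, with cytosolic, mitochondrial and ER genes separated by dashed lines and ordered by their change with mtDNA loss. Heat-shock element matches lie upstream of 15 genes, among them HSP104, HSP42, BTN2 and SIS1, and the unfolded protein response element matches are those of STI1, KAR2 and LHS1.

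Levels between genes were compared as the deposited FPKM. Per the paper these carry an effective length correction, so they are not simply per length of transcript. In ρ+ vector replicate 0, HSP10, with 321 bases, had 134 CPM and 774 FPKM. SSC1, with 1965 bases, had 929 CPM and 445 FPKM, so the high rank of HSP10 depends on that correction. The ribosome-bound Hsp70 genes SSB2 and SSB1, whose products meet chains as they leave the ribosome, were the most abundant, at a mean of 1369 and 1276 FPKM over the 8 libraries. They were followed by HSP10, the co-chaperonin of the matrix, at 954, by HSC82, the more abundant Hsp90 gene, at 815, and by SSA2, a cytosolic Hsp70, at 718. At the other end stood SSA4, a stress-inducible Hsp70, at 23.1, SSE2, a minor Hsp110, at 28.1, and APJ1, a J protein gene, at 29.7 FPKM. Within the matrix group the means ran from 954 for HSP10 and 607 for SSC1 down to 82.4 for MDJ1 and 32.0 for HSP78. KAR2, the ER Hsp70, stood at 196 and LHS1, its exchange factor and Hsp70 relative, at 32.3 FPKM. HSF1 itself was at 61.8 FPKM.

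The first comparison asked which chaperone transcripts differ between cells with and without mtDNA, both with the empty vector. Cytosolic transcripts for clearing and sorting aggregates were higher in ρ0 cells. They were led by the disaggregase gene HSP104 at 4.21-fold, the small heat-shock protein gene HSP42 at 2.69-fold and the aggregate-sorting gene BTN2 at 2.52-fold. Also higher were the Hsp90 gene HSP82, the J protein genes SIS1 and APJ1, the sorting gene CUR1, and the matrix genes MDJ1 and SSC1. LHS1 of the ER was lower, at 0.667-fold. With edgeR's quasi-likelihood test and Benjamini-Hochberg adjustment over all genes tested, 9 of the 35 members passed an adjusted p of 0.05 as higher and 1 as lower, against 7.49% of the 5832 genes as higher and 6.38% as lower. The median log2 fold change was 0.13 over the 35 members and 0.01 over all genes tested. With replicate number as a block, 12 members passed, against 19.9% of all genes, with FES1 and UBI4 added as higher, HSC82 added as lower and HSP82 lost at an adjusted p of 0.104. With limma on log2(FPKM + 1) the members that passed were HSP104, HSP42, BTN2 and HSP82. SIS1, APJ1, CUR1, MDJ1, SSC1 and LHS1 lost their calls there, at adjusted p of 0.0764 to 0.129. The count was 4 without ρ+ vector replicate 0 (HSP104, HSP42, MDJ1 and LHS1), 5 without ρ0 vector replicate 1 and 4 with limma on log2(FPKM + 1), where 258, 465 and 353 of all genes passed, against 809.

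**Figure D2:**
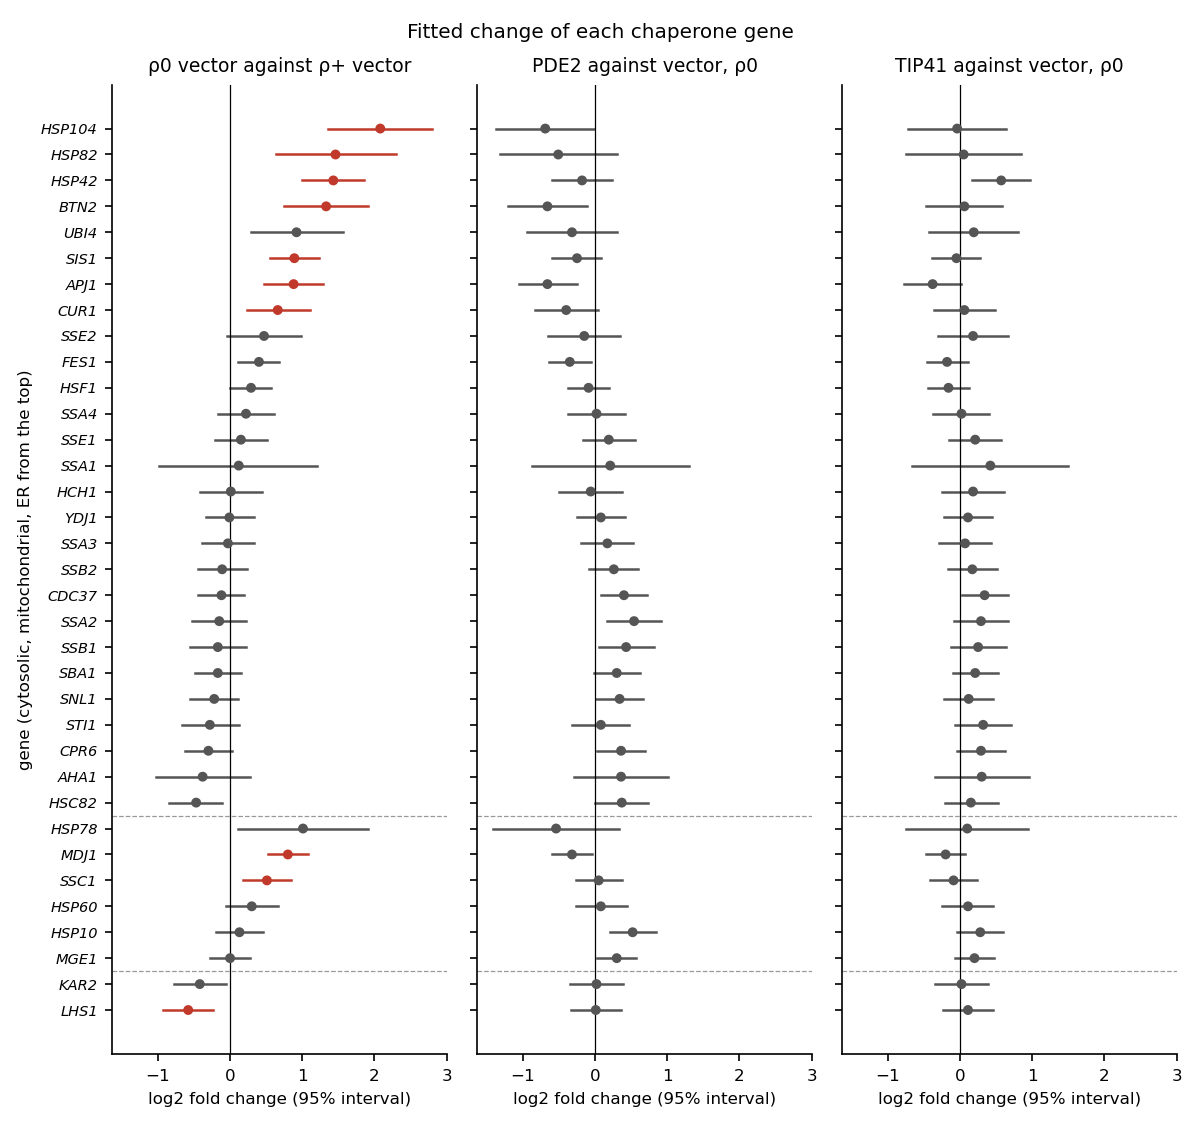
Fitted log2 fold change (point) with its 95% interval (line) for each of the 35 genes in ρ0 vector against ρ+ vector cells and in PDE2 and TIP41 against vector ρ0 cells, with genes past an adjusted p of 0.05 in red. The fit has no replicate block. With mtDNA loss 9 genes are red to the right of 0, from HSP104 at 2.08 to SSC1 at 0.51, and LHS1 is red at −0.58, while no gene is red in the PDE2 and TIP41 panels.

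The 4 cytosolic genes grouped here for disaggregation and sorting all rose. The matrix disaggregase gene HSP78, given below with the matrix genes, did not pass (edgeR adjusted p = 0.133). HSP104 stood at 165 and 235 CPM (the fragments of a gene per 1e6 fragments in genes, after scaling between libraries, here in replicates 0 and 1) in ρ+ vector, 797 and 869 in ρ0 vector, 548 and 1074 with TIP41, and 501 and 531 in PDE2 cells. Every ρ0 library was above both ρ+ libraries, and the TIP41 replicates were far apart. The log2 fold change with mtDNA loss was 2.08 ± 0.31 (SE, n = 2 libraries a group; edgeR adjusted p = 0.00337), but leaving out ρ0 vector replicate 0 or 1 took the adjusted p to 0.0565 and 0.0991 at nearly the same fold change. HSP42, whose product gathers misfolded proteins into cytosolic deposits, had 61.5 and 51.2 CPM in ρ+ vector, 153 and 156 in ρ0 vector, 177 and 283 with TIP41, and 135 and 138 in PDE2 libraries. Its ρ0 vector libraries nearly coincided and its TIP41 libraries were the highest of the 8. The change of 1.43 ± 0.20 (adjusted p = 0.000606 by edgeR) passed under each of the 16 alternatives tried, the adjusted p running from 1.24e-07 to 0.0349.

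BTN2 had 22.1 and 31.6 CPM in ρ+ vector, 75.6 and 52.0 in ρ0 vector, 53.1 and 82.1 with TIP41, and 39.7 and 41.2 in PDE2 libraries. Each ρ0 library lay above the ρ+ libraries, the PDE2 libraries nearest to them. Its log2 fold change with mtDNA loss was 1.33 ± 0.26 (edgeR adjusted p = 0.00679). CUR1, a paralogue of BTN2 that sorts misfolded proteins toward the nucleus, was at 21.9 and 23.1 CPM in ρ+ vector, 38.9 and 31.9 in ρ0 vector, 32.3 and 42.6 with TIP41, and 25.5 and 28.1 in PDE2 libraries. It had the same order of groups as BTN2 with smaller differences, at 0.66 ± 0.21 (adjusted p = 0.0432). CUR1 lost its call without any 1 of the 2 ρ+ vector, 2 ρ0 vector and 2 ρ0 PDE2 libraries, at adjusted p of 0.0501 to 0.292, with DESeq2, at 0.225, and with limma, at 0.0847 and 0.0848, and BTN2 lost it without ρ+ vector replicate 0, at 0.15.

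**Figure D3:**
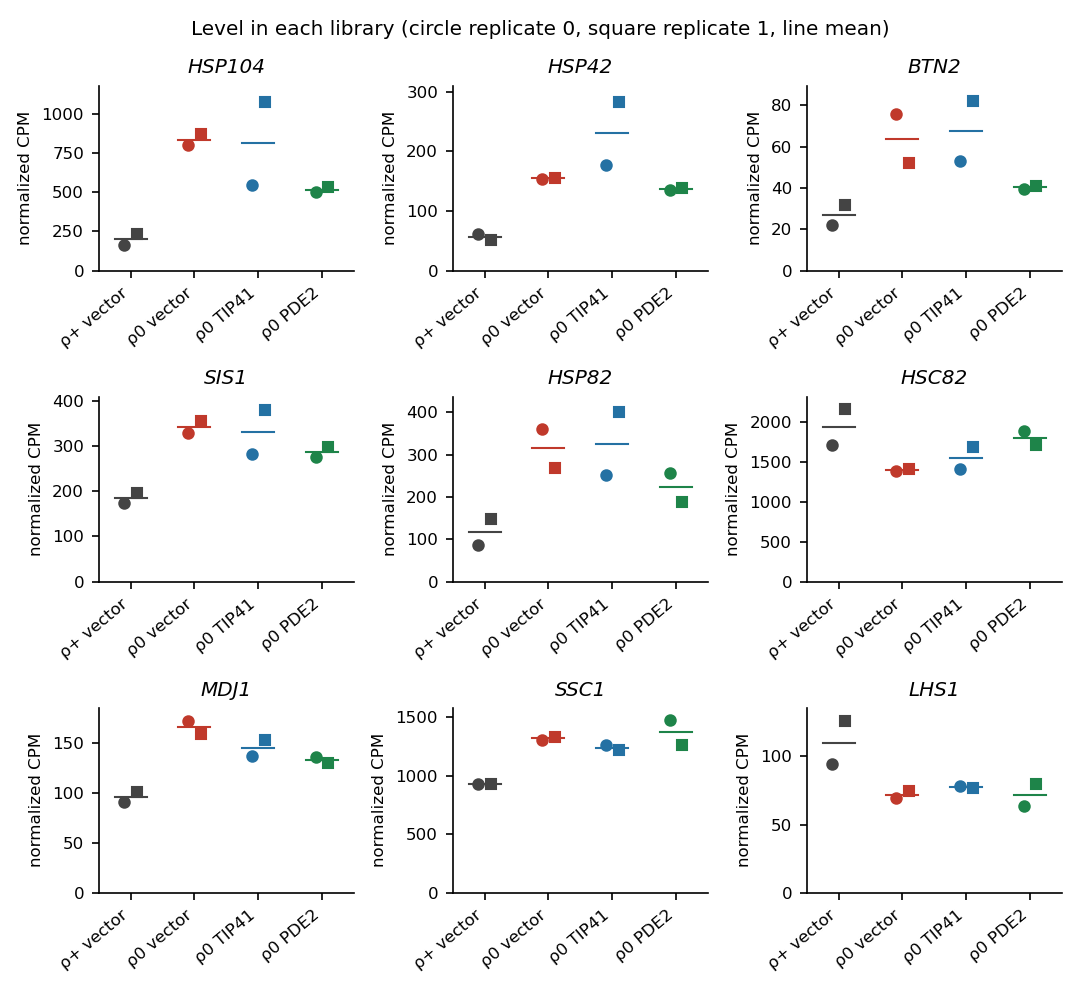
Normalized CPM in each library of the 4 groups for 9 genes (circle, replicate 0; square, replicate 1; line, mean), on linear axes from 0. HSP104, HSP42, BTN2, SIS1, HSP82, MDJ1 and SSC1 are higher in every ρ0 library than in both ρ+ libraries, LHS1 is lower in every one, and HSC82 is lowest in the ρ0 vector libraries.

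Among the J proteins that partner the cytosolic Hsp70s, SIS1 and APJ1 rose and YDJ1 did not pass. SIS1, an essential J protein of the Hsp70 cycle, had 175 and 197 CPM in ρ+ vector, 329.5 and 355 in ρ0 vector, 282 and 379 with TIP41, and 275 and 299 in PDE2 libraries. The ρ+ libraries were lowest, and ρ0 groups overlapped in part. Its log2 fold change was 0.89 ± 0.16 (edgeR adjusted p = 0.00175). APJ1, which takes part in turning over misfolded proteins, had 32.0 and 40.7 CPM in ρ+ vector, 67.0 and 62.1 in ρ0 vector, 47.5 and 52.0 with TIP41, and 49.7 and 34.1 in PDE2 libraries. It was highest in the ρ0 vector libraries, and one PDE2 library lay within the ρ+ range. The change was 0.88 ± 0.19 (adjusted p = 0.00666). Without ρ+ vector replicate 0 the adjusted p was 0.0563 for SIS1 and 0.18 for APJ1. YDJ1, the abundant general J protein, changed by −0.01 ± 0.16 (adjusted p = 0.986), its 95% interval running from −0.34 to 0.33. The plot of levels by library includes SIS1.

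The Hsp90 genes, whose coding sequences share 91.7% of their bases, lay on opposite sides of 0. Their longest identical run is 113 bases, and a fragment inside it cannot be assigned by sequence alone. How far this affects the levels and the ratio of the pair was not tested. HSP82, the more inducible gene, had 87.8 and 147 CPM in ρ+ vector, 361 and 269 in ρ0 vector, 253 and 400.2 with TIP41, and 258 and 188 in PDE2 libraries. The ρ+ libraries were the lowest. The log2 fold change with mtDNA loss was 1.46 ± 0.35 (edgeR adjusted p = 0.0393). The call was lost without ρ+ vector replicate 0, either ρ0 vector library or ρ0 PDE2 replicate 0, at adjusted p of 0.156, 0.172 and 0.141, and 0.0505. HSC82, the more constitutive gene, had 1710.1 and 2164 CPM in ρ+ vector, 1384 and 1405 in ρ0 vector, 1412 and 1691 with TIP41, and 1892 and 1706 in PDE2 libraries. Its ρ0 vector libraries were the lowest of the 8. Its log2 difference of −0.47 ± 0.17 had an adjusted p of 0.0801, or 0.0311 with the replicate block and 0.0454 with DESeq2. In FPKM, HSP82 came to 5.12% and 6.73% of the HSC82 level in ρ+ vector cells, 25.9% and 19.0% in ρ0 vector cells, 17.7% and 23.5% with TIP41, and 13.5% and 10.9% with PDE2. The percentages of the 4 groups did not overlap, except that those of ρ0 vector and TIP41 did.

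The cytosolic Hsp70 genes did not pass. The log2 differences of SSA1 to SSA4 with mtDNA loss lay between −0.15 and 0.22, with adjusted p of 0.455 to 0.93, and those of SSB1 and SSB2 were −0.17 and −0.11. For SSA2 the 95% interval ran from −0.53 to 0.22, while for SSA1 it ran from −0.98 to 1.21. SSA1 had 285 and 499 CPM in ρ+ vector, 484 and 359 in ρ0 vector, 554 and 572 with TIP41, and 665 and 314 in PDE2 libraries, and in the ρ+ vector and PDE2 groups its replicates differed by more than any group means did. SSA2 had 1268 and 1322, 1276 and 1054, 1222 and 1629, and 1751 and 1631 CPM in the same order, with its highest values in the PDE2 libraries. SSA1 and SSA2 share 96.4% of their coding bases with an identical run of 383 bases, and SSB1 and SSB2 share 97.4% with a run of 563, so fragments inside those runs cannot be assigned by sequence alone and the levels within each pair are uncertain. Matches to the heat-shock element lay upstream of SSA1 and SSA2 as well, the printed run of SSA1 being as long as those of HSP104 and HSP42 and that of SSA2 shorter. How these matches relate to the levels was not tested.

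Of the 4 cytosolic exchange factors, which release ADP from Hsp70, none passed with mtDNA loss. FES1 came nearest at 0.40 ± 0.13 (edgeR adjusted p = 0.064), or 0.024 with the block, with 134 and 154 CPM in ρ+ vector and 198 and 178 in ρ0 vector libraries. SSE2 was at 0.47 ± 0.23, its abundant paralogue SSE1 at 0.15 ± 0.17 and the membrane-anchored SNL1 at −0.22 ± 0.16. The 6 Hsp90 co-chaperones also gave no call, with log2 differences from −0.38 for AHA1, which stimulates the Hsp90 ATPase, to 0.01 for its relative HCH1 and a median of −0.22. STI1, which bridges Hsp70 and Hsp90, was at −0.28, the prolyl isomerase CPR6 at −0.30, SBA1, the yeast p23, at −0.17 and CDC37, the co-chaperone for kinases, at −0.12. CPR6 passed as lower without ρ0 vector replicate 0, at an adjusted p of 0.0338. UBI4, which encodes ubiquitin used up in protein breakdown, had 158 and 179.5 CPM in ρ+ vector, 359.8 and 278 in ρ0 vector, 396 and 329.5 with TIP41, and 335 and 181 in PDE2 libraries. Its difference of 0.92 ± 0.28 had an edgeR adjusted p of 0.0619. This was 0.00265 with the block, 0.00302 with only the 2 groups fitted and 0.00381 with DESeq2.

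HSF1 itself did not pass. It had 128 and 147 CPM in ρ+ vector, 166 and 167 in ρ0 vector, 151 and 147 with TIP41, and 144 and 169 in PDE2 libraries. The ρ0 vector libraries were above the ρ+ libraries by a margin near the gap between the ρ+ replicates. Its log2 difference of 0.29 ± 0.13 (edgeR adjusted p = 0.166) had a 95% interval from 0.00 to 0.57. HSF1 shares its deposited locus with YGL072C and YGL074C, so its counts are partly divided between overlapping genes, and the same holds for SSB1 with YDL228C and CPR6 with YLR217W. SSA1 shares its locus with YAL004W, though its deposited counts are whole in all 8 libraries.

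Among the genes raised with mtDNA loss, a heat-shock element lay upstream of 4 of 9, and of 11 of the 26 other members. For the stress response element the counts were 6 of 9 and 7 of 26. BTN2 and SIS1 had a match to the first element alone, APJ1, HSP82, MDJ1 and SSC1 to the second alone, HSP104 and HSP42 to both, and CUR1 to neither within 500 bases. Only the strict forms given above were searched. A heat-shock element with a mismatched triplet or a wider gap would have been missed. These counts therefore do not show that genes without a match lack the element.

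**Figure D4:**
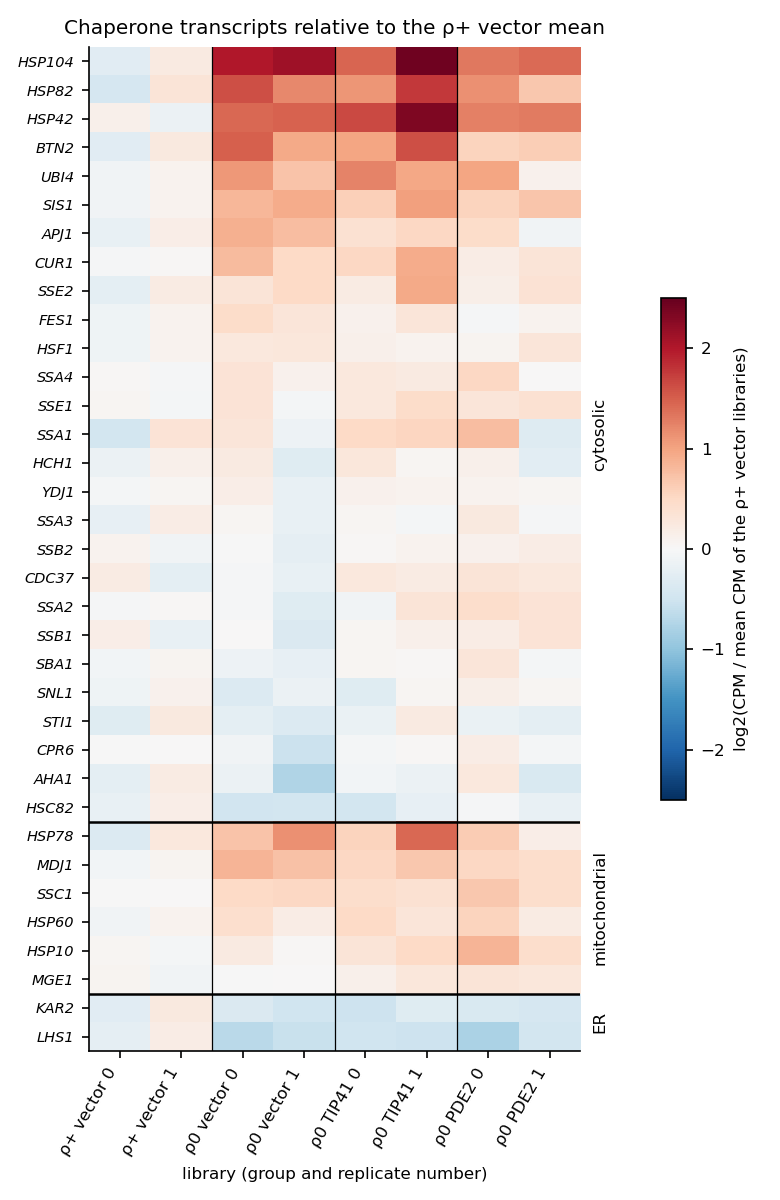
Colour gives log2 of the CPM of each gene in each of the 8 libraries relative to its mean in the ρ+ vector libraries, with genes grouped by compartment and ordered by the change with mtDNA loss. Red at the top left of the ρ0 columns marks HSP104, HSP82, HSP42 and BTN2, MDJ1, SSC1 and HSP78 are red in the ρ0 vector columns, MGE1 is near white there, and KAR2 and LHS1 are blue.

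With mtDNA loss 2 of the 6 matrix genes rose, MDJ1 and SSC1, and 7 of the 27 cytosolic genes, while 1 of the 2 ER genes fell, LHS1. Of all genes tested 7.49% passed as higher and 6.38% as lower. With 6 matrix and 2 ER genes, these counts do not show a difference between compartments. The median log2 fold change was 0.41 over the 6 matrix genes, −0.50 over the 2 ER genes and 0.12 over the 27 cytosolic genes, beside 0.01 for all genes tested. Summed over the 6 genes, matrix chaperones took 0.181% and 0.188% of the fragments in ρ+ vector libraries and 0.237% to 0.282% in the 6 ρ0 libraries, so the ranges did not overlap. The ER genes took 0.0490% and 0.0691% against 0.0415% to 0.0468%, also with no overlap. Each sum rests largely on 1 gene. SSC1 gave 929 and 931 of the 1811 and 1875 CPM of the matrix sum in ρ+ vector, and 1311 and 1334 of 2509 and 2435 in ρ0 vector libraries. KAR2, which did not pass, gave 396 and 566 of the 490.1 and 691 CPM of the ER sum in ρ+ vector libraries. The cytosolic genes took 1.24% and 1.27% in ρ+ vector, 1.38% and 1.19% in ρ0 vector, 1.35% and 1.56% in TIP41, and 1.5% and 1.45% in PDE2 libraries, so that their sum did not separate ρ0 vector from ρ+ cells. SSB1, SSB2, SSA2, SSE1 and HSC82 made up 61.7% to 73.9% of the cytosolic sum, and HSP104 and HSP42 together 1.82% and 2.25% of it in ρ+ vector libraries and 4.24% to 8.68% in ρ0 libraries. The cytosolic median was −0.11 without ρ0 vector replicate 0.

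**Figure D5:**
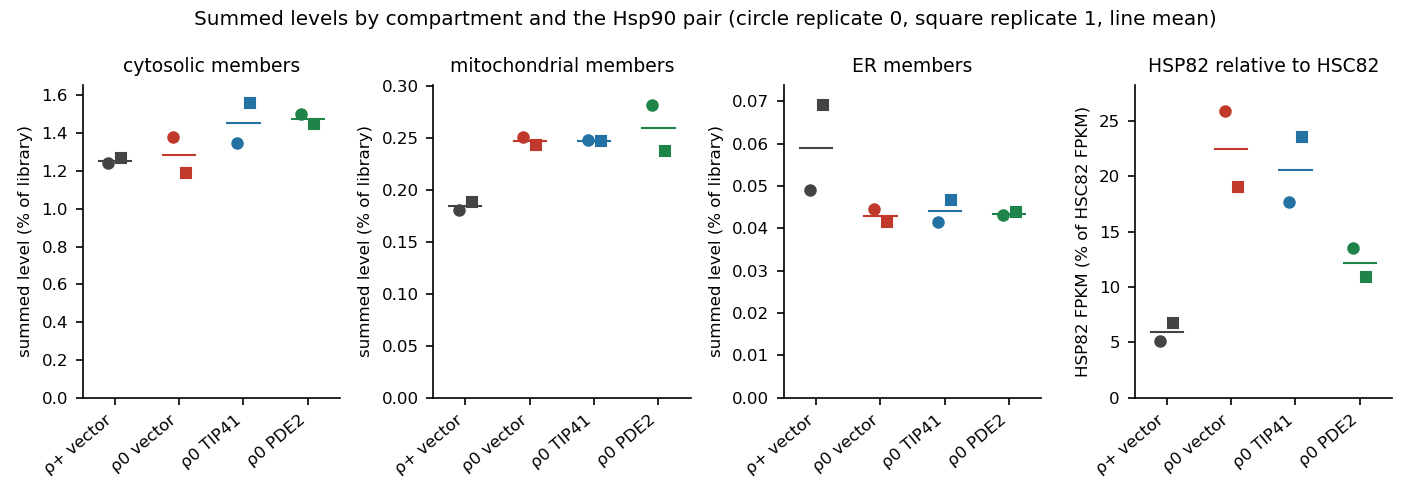
Summed level of the cytosolic, mitochondrial and ER members in each library, in % of its fragments in genes after scaling, and the FPKM of HSP82 in % of that of HSC82 (circle, replicate 0; square, replicate 1; line, mean). The ρ+ libraries are lowest for the mitochondrial sum, at 0.181% and 0.188%, highest for the ER sum, at 0.0490% and 0.0691%, and lowest for the Hsp90 ratio, at 5.12% and 6.73%.

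Among matrix genes MDJ1 and SSC1, whose products are partners in the folding cycle of the matrix, rose. MDJ1, the J protein that stimulates matrix Hsp70 in folding, had 90.8 and 100.3 CPM in ρ+ vector, 172 and 159 in ρ0 vector, 137 and 153 with TIP41, and 136 and 129.8 in PDE2 libraries. All ρ0 libraries were above the ρ+ ones, the ρ0 vector libraries highest. The log2 fold change was 0.80 ± 0.13 (edgeR adjusted p = 0.000786), and the call held without each library in turn and was lost with limma on FPKM, at 0.0858 and 0.0866. SSC1, the essential Hsp70 of the import motor, had 929 and 931 CPM in ρ+ vector, 1311 and 1334 in ρ0 vector, 1264 and 1219 with TIP41, and 1478 and 1265 in PDE2 libraries. Replicates of SSC1 nearly coincided in both vector groups. Its change was 0.51 ± 0.15 (adjusted p = 0.0393), a call that held without ρ0 vector replicate 0 and was lost without any other library, at adjusted p of 0.0521 to 0.2.

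HSP78, the matrix relative of Hsp104, had 38.6 and 58.9 CPM in ρ+ vector, 80.3 and 107 in ρ0 vector, 71.9 and 131 with TIP41, and 75.8 and 54.4 in PDE2 libraries. The ρ0 vector libraries lay above the ρ+ ones, but replicates were far apart in every group. The log2 difference of 1.01 ± 0.37 had an adjusted p of 0.133 with edgeR and 0.0232 with DESeq2, and 0.0225 and 0.0211 without ρ0 TIP41 replicate 0 or 1. MGE1, the exchange factor of matrix Hsp70, had 179 and 161 CPM in ρ+ vector, 169.6 and 171 in ρ0 vector, 185 and 207 with TIP41, and 213 and 208 in PDE2 libraries. The vector groups overlapped, with a log2 difference of 0.00 ± 0.13 and a 95% interval from −0.28 to 0.27. The chaperonin genes HSP60 and HSP10, whose products form the folding chamber of the matrix, were at 0.30 ± 0.17 and 0.13 ± 0.15 (adjusted p = 0.248 and 0.631). HSP10 had 134 and 126 CPM in ρ+ vector, 152 and 132 in ρ0 vector, 162 and 183 with TIP41, and 233 and 177 in PDE2 libraries. Its ρ0 vector libraries overlapped the ρ+ ones, and its PDE2 library of replicate 0 was the highest.

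In the ER, LHS1 had 94.5 and 126 CPM in ρ+ vector, 69.5 and 74.6 in ρ0 vector, 78.5 and 76.9 with TIP41, and 63.3 and 79.8 in PDE2 libraries. All ρ0 libraries lay below both ρ+ libraries. The log2 fold change was −0.58 ± 0.16 (edgeR adjusted p = 0.0251), and the adjusted p was 0.186 without ρ+ vector replicate 1, 0.0745 and 0.0589 without ρ0 vector replicate 0 or 1, and 0.0923 with DESeq2. KAR2, which binds chains entering the ER, had 396 and 566 CPM in ρ+ vector, 375 and 341 in ρ0 vector, 336 and 391 with TIP41, and 368 and 358 in PDE2 libraries. The ρ+ vector library of replicate 1 stood apart, while that of replicate 0, at 396 CPM, was close to the highest ρ0 library, at 391. Its log2 difference was −0.42 ± 0.17 (adjusted p = 0.119).

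The next comparisons asked how lower PKA activity, or TIP41, changes these transcripts in cells without mtDNA. In the main fit, which has no replicate block, no member passed with PDE2 against the vector in ρ0 cells, where 2.30% of all genes did. None passed with TIP41, where 0.412% did. At an unadjusted p under 0.05, 13 of the 35 were found with PDE2, against 1148 of the 5832 genes, and 2 of the 35 with TIP41, against 623. DESeq2, which gave an adjusted p to only 26 of the 35 members and 2214 of the 5832 genes with PDE2, called SSA2 with PDE2 and none with TIP41, and limma on log2(FPKM + 1) called none in either. With the replicate block 5 members passed with PDE2, against 9.79% of all genes: CDC37, HSP10 and SSA2 as higher and APJ1 and HSP104 as lower. Leaving out ρ0 vector replicate 0 gave 4 members as higher with PDE2, CPR6, HSP10, SSA2 and SSB1, where 423 of all genes passed, against 134.

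The larger differences with PDE2 lay on both sides of 0, and none passed without the block. HSP104 differed by −0.69 ± 0.30 on the log2 scale (edgeR adjusted p = 0.248, or 0.0177 with the block), both PDE2 libraries, at 501 and 531 CPM, lying under the vector libraries at 797 and 869. APJ1 was at −0.66 ± 0.19 (adjusted p = 0.0758, 0.0173 with the block) and BTN2 at −0.66 ± 0.25 (0.181, 0.115 with the block). On the other side stood SSA2 at 0.54 ± 0.18 (0.108, 0.0311 with the block), HSP10 at 0.52 ± 0.15 (0.0737, 0.0128 with the block), SSB1 at 0.43 ± 0.18 (0.206), CDC37 at 0.40 ± 0.15 (0.151, 0.0432 with the block) and HSC82 at 0.37 ± 0.17 (0.249). Both PDE2 libraries lay above both vector libraries for 10 members and below for 10, which makes 20 of 35 without overlap, against 49.8% of all genes tested. The remaining matrix gene differences were −0.32 ± 0.13 for MDJ1, 0.30 ± 0.13 for MGE1, 0.08 ± 0.17 for HSP60, 0.05 ± 0.15 for SSC1 and −0.54 ± 0.36 for HSP78, and the ER genes were at 0.02 ± 0.17 (KAR2) and 0.01 ± 0.16 (LHS1). Their medians were 0.07 for the matrix, 0.01 for the ER and 0.08 for the cytosol, beside −0.02 over all genes. Without PDE2 replicate 0 the matrix median was −0.08, and without PDE2 replicate 1 the ER median was −0.07.

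With TIP41 the log2 differences were mostly small and positive, with a median of 0.12 over the 35 members and 0.01 over all genes. HSP42 had the largest, at 0.57 ± 0.19 (edgeR adjusted p = 0.346), and APJ1 the most negative, at −0.38 ± 0.18 (0.483). HSP104 was at −0.04 ± 0.29, its 95% interval running from −0.72 to 0.63. HSF1 was at −0.16 ± 0.13, CDC37 at 0.34 ± 0.15 and STI1 at 0.32 ± 0.18. Among matrix genes HSP10 was highest, at 0.28 ± 0.15, and MDJ1 lowest, at −0.20 ± 0.13, while LHS1 and KAR2 were at 0.11 ± 0.16 and 0.02 ± 0.17. The libraries of TIP41 and vector did not overlap for 18 of 35 members, against 41.9% of all genes.

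PDE2 and TIP41 libraries were also compared directly. No member passed, where 0.394% of all genes did, with 3 of the 35 at an unadjusted p under 0.05, against 384 of 5832 genes, and none with DESeq2 or limma. Those 3 were HSP42 at −0.74 ± 0.19 (edgeR adjusted p = 0.221), BTN2 at −0.72 ± 0.25 (0.56) and CUR1 at −0.46 ± 0.21 (0.711), each lower with PDE2. Without TIP41 replicate 0, HSP42 passed at an adjusted p of 0.012.

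Against ρ+ vector cells, the remaining ρ0 groups kept part of the pattern. In ρ0 PDE2 cells 6 members rose, HSP104, HSP42, SIS1, MDJ1, SSC1 and HSP10, where 5.13% of all genes passed in either direction. HSP42 was at 1.25 ± 0.20 (edgeR adjusted p = 0.00395), HSP104 at 1.38 ± 0.31 (0.0426), HSP10 at 0.65 ± 0.15 (0.021), SIS1 at 0.63 ± 0.16 (0.0335), SSC1 at 0.56 ± 0.15 (0.048) and MDJ1 at 0.48 ± 0.13 (0.0468). These calls rest on few libraries, with 0 members passing without either ρ+ vector library and 0 with limma, 1 without PDE2 replicate 0, 3 without PDE2 replicate 1 and 4 without either TIP41 library. The 6 matrix genes had values between 0.30 and 0.65, with a median of 0.47. LHS1 was at −0.58 ± 0.16 (0.0527, or 0.0073 with the block) and KAR2 at −0.40 ± 0.17 (0.226).

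In ρ0 TIP41 cells 5 members rose against ρ+ vector cells, where 5.25% of all genes passed. HSP104 was at 2.03 ± 0.31 (edgeR adjusted p = 0.00736), HSP42 at 2.00 ± 0.20 (0.000103), BTN2 at 1.39 ± 0.26 (0.0111), SIS1 at 0.83 ± 0.16 (0.00592) and MDJ1 at 0.60 ± 0.13 (0.0124). With the block 9 members passed, against 9.59% of all genes, with CUR1, SSE2 and UBI4 added as higher and LHS1 as lower. HSP42 passed under each of the 16 alternatives, at adjusted p up to 0.0249, whereas the count fell to 1 without ρ+ vector replicate 0 and to 2 without TIP41 replicate 1, and rose to 8 without TIP41 replicate 0. HSP104 lost its call without either ρ0 vector library, at 0.082 and 0.079, without ρ+ vector replicate 0, at 0.0933, and with only the 2 groups fitted, at 0.234. All comparisons with the ρ+ vector share its libraries, and all those with the ρ0 vector share theirs, so the sets of values above are not independent of each other.

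Replicates differed within groups in ways that many chaperone genes shared. Of the 35 members, 27 were higher in replicate 1 than in replicate 0 in ρ+ vector libraries, 23 in TIP41, 11 in ρ0 vector and 12 in PDE2 libraries. The median difference of replicate 1 from replicate 0 was 0.18, 0.16, −0.15 and −0.08 on the log2 scale in the same groups, beside −0.01 to 0.00 over all genes. SSA1 differed most in PDE2, at −1.08, and in ρ+ vector libraries, at 0.81, and HSP104 in TIP41 libraries, at 0.97. The part of such shared differences in the results was not tested.

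Other genes of the same processes were counted as lists. With mtDNA loss 6.38% of the 5832 genes tested passed as lower and 7.49% as higher, and their median log2 fold change was 0.01. Of 18 genes for folding and quality control in the ER, 3 fell with mtDNA loss and none rose, with a median of −0.30: the J protein genes SCJ1 (−0.67 ± 0.17, edgeR adjusted p = 0.0158) and JEM1 (−0.55 ± 0.17, 0.0393), which serve Kar2 in the ER lumen, and the prolyl isomerase gene CPR5 (−0.47 ± 0.14, 0.0388). Of 8 further Hsp90 co-chaperones and related genes, 2 fell, the prolyl isomerase genes CPR1 (−1.12 ± 0.22, 0.00366) and CPR7 (−0.63 ± 0.14, 0.00757), with a median of −0.25. At an unadjusted edgeR p under 0.05 stood 6 of the 18 and 3 of the 8, against 1692 of 5832 in all. CPR1 had 1118 and 1125 CPM in ρ+ vector libraries and 588 and 443 in ρ0 vector libraries. Each of these 5 calls was lost without ρ0 vector replicate 1, at adjusted p of 0.0501 to 0.262, and those of CPR1, CPR5, CPR7 and JEM1 also without ρ+ vector replicate 0, at 0.0563 to 0.307. Leaving out ρ+ vector replicate 1 ended those of CPR5, JEM1 and SCJ1, at 0.0682 to 0.177, and further libraries that of JEM1 (either TIP41 library, 0.0527 and 0.0551) and that of CPR5 (ρ0 vector replicate 0, 0.0621). DESeq2 did not call CPR5, CPR7 or JEM1 (0.114, 0.0661 and 0.202), and limma did not call CPR5, JEM1 or SCJ1 (0.106 to 0.145). With the block EUG1, at −0.47 ± 0.24, and PPT1, at −0.44 ± 0.14, passed as lower too, at adjusted p of 0.0406 and 0.0165 against 0.218 and 0.0514 without it. No call was made with mtDNA loss among 14 genes of the cytosolic chaperonin CCT and of prefoldin (median −0.19), 13 of ribosome-associated chaperones and other cytosolic J proteins (−0.18) or 10 other mitochondrial chaperones and Hsp70 partners (0.13). Of 9 small heat-shock, Hsp31 family and other stress genes, 6 passed the filter and 0 were called (median 0.13). In these 4 lists without a call, 8 of 43 genes had an unadjusted p under 0.05, against 1692 of 5832 in all, and DESeq2 and limma on log2(FPKM + 1) each called HSP30, and the block EGD1 and MCX1 as lower and SWA2 as higher. HSP30, a stress-induced gene for a plasma membrane protein, was singled out after its values were seen. It had 148 and 55.4 CPM in ρ+ vector and 679 and 1278 in ρ0 vector libraries, which did not overlap. Its log2 difference of 3.20 ± 0.73 had an adjusted p of 0.0617 with edgeR, 9.74e-05 with DESeq2, 0.0249 with limma and 0.0848 with the block. With PDE2 against the vector no gene of the 6 lists passed in edgeR, the list medians lying between −0.08 and 0.35, with 13 of 69 genes at an unadjusted p under 0.05, against 1148 of 5832 in all, 5 called by DESeq2, which gave an adjusted p to 32 of them, 0 by limma and 6 with the block. Those 6, all higher with PDE2, were CPR1 at 0.69 ± 0.21 (edgeR adjusted p = 0.101, or 0.00903 with the block), CPR5 at 0.50 ± 0.14 (0.0717, 0.0169 with the block), the disulfide isomerase gene PDI1 at 0.55 ± 0.17 (0.0958, 0.025 with the block), SSZ1 at 0.69 ± 0.19 (0.0691, 0.0146 with the block) and EGD1 at 0.47 ± 0.15 (0.103, 0.0403 with the block), both for proteins at the ribosome, and HSP26. The PDE2 and mtDNA loss comparisons share the ρ0 vector libraries. With TIP41 none passed either, with medians of −0.09 to 0.22, 7 of 69 genes at an unadjusted p under 0.05, against 623 of 5832, and 0 called by DESeq2, limma or the block. HSP26, a small heat-shock protein gene, had 20.7 and 8.79 CPM in PDE2 libraries against 3.60 and 3.23 in ρ0 vector libraries, a log2 difference of 2.01 ± 0.57 (edgeR adjusted p = 0.0788, or 0.00347 with the block). The paper reports both HSP26 and HSP12 as raised by PDE2 in ρ0 cells. HSP12 belonged to the same list and was called by none of edgeR, DESeq2, limma and the block. A missed threshold does not show that HSP12 was unchanged.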

How the data were processed

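RNA was measured in 8 libraries, 2 in each of 4 groups as the labels give them. The files deposited by the authors give estimated counts and FPKM values for each gene in each library, made with TopHat2 2.0.14 and Cuffdiff 2.2.1.1 on genome build R64 per the submitters' notes, with oligo(dT)-selected, paired-end libraries. Cuffdiff divides fragments between overlapping genes, and 12.3% of the counts above 0 are not whole (tolerance 0.001). The strand setting of the counting was not given in the sources used here. The authors' own comparisons (fold changes, p-values and q-values of condition pairs) were not used. The replicates are biological samples performed by different experimenters, per the paper.

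Rounded counts were tested with edgeR 4.0.16 under R 4.3.3 (TMM, filterByExpr, robust quasi-likelihood fit of the 4 groups, 4 residual degrees of freedom) with Benjamini-Hochberg adjustment over 5832 genes of each comparison and a threshold of 0.05. CPM are after TMM scaling. The SE of a log2 fold change is its size divided by the square root of F, and 95% intervals use t quantiles. Members held 33 to 12464 fragments in a library. The intervals rest on a spread estimated from all 8 libraries and moderated across genes, and not on the 2 replicates of a group alone.

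Same-numbered replicates deviated together from their group means, with correlations of 0.19 to 0.50 over 5832 genes in each of the 6 pairs of groups, so the numbers were taken to pair the samples. The median log2 shift between the replicates of the 35 members was 0.18 in ρ+ vector and 0.16 in TIP41 libraries, but −0.15 in ρ0 vector and −0.08 in PDE2 libraries. A block common to all groups does not take up a shift that reverses between them. The main fit has no block, and the blocked fit, with 3 residual degrees of freedom, is given beside results where it changes a call.

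Alternatives were RLE size factors, no filter, a filter of 50 fragments, the replicate block, a fit of only the 2 groups, each library left out, DESeq2 1.42.0, and limma 3.58.1 on log2(FPKM + 1) and log2(FPKM + 0.1). Medians of gene groups are descriptions without a test. Sequences and the places of genes came from RefSeq's R64 genome, in which all 35 members were matched and 5199 of 5223 single-locus genes (99.5%) had the deposited start and end. The members and lists were chosen with earlier results of these data known. Values in each library are given for every member called in at least 1 of the 6 comparisons, for HSF1 and for the member with the largest change in either direction in each compartment with mtDNA loss, PDE2 or TIP41. Values in libraries of SSA1, UBI4 and FES1, and the list genes called only by another tool or with the block, were added after their values were seen. Genes of the related lists are named where they passed in those 3 comparisons.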

Additional observations from a re-analysis of the deposited data

Results flagged for a closer look

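HSP42 lay on opposite sides of the vector in the overexpressing ρ0 cells. Both PDE2 libraries (135 and 138 CPM) were below both ρ0 vector libraries (153 and 156 CPM), and both TIP41 libraries (177 and 283 CPM) were above them. The log2 difference of PDE2 from TIP41 was −0.74 ± 0.19 (n = 2 libraries a group), which missed the threshold in edgeR's quasi-likelihood test at an adjusted p of 0.221, with a range of 0.012 to 0.999 over the 16 alternatives. The TIP41 replicates were farther apart than the PDE2 libraries were from the vector libraries.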

How the results depend on the processing

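The number of members passing with mtDNA loss was 10 (809 of all genes) and became 4 with limma on FPKM at either pseudocount (1 or 0.1; 353 and 352 of all genes), and 4 to 10 with a library left out (258 to 947). With PDE2 in ρ0 cells it was 0 (134) and became 5 with the replicate block (571), 1 with DESeq2 (242 of the 2214 genes with an adjusted p) and 0 to 4 with a library left out (25 to 423). For PDE2 against TIP41 it was 0 (23), and 0 to 1 with a library left out (9 to 36). For PDE2 against ρ+ it was 6 (299), and 0 with both limma settings (86) and 0 to 6 with a library left out (59 to 412). For TIP41 against ρ+ it was 5 (306), and 9 with the replicate block (559), 8 with only the 2 groups fitted (563), 2 with both limma settings (126 and 129) and 1 to 8 with a library left out (70 to 415). With TIP41 in ρ0 cells it was 0 under each alternative. The cause of these shifts was not tested.

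Leaving out a library moved the cytosolic median from −0.11 to 0.28 with mtDNA loss, 0.10 to 0.29 for PDE2 against ρ+, 0.16 to 0.31 for TIP41 against ρ+ and −0.13 to 0.03 for PDE2 against TIP41. The matrix median ran from −0.08 to 0.20 with PDE2, 0.01 to 0.14 with TIP41 and 0.37 to 0.61 for PDE2 against ρ+, and the ER median from −0.07 to 0.08 with PDE2 and 0.00 to 0.11 with TIP41. Small log2 differences that had not passed changed sign. With PDE2 the ranges over libraries left out were −0.21 to 0.02 for HSF1, −0.06 to 0.16 for SSC1, −0.05 to 0.09 for KAR2 and −0.19 to 0.15 for LHS1, and LHS1 was −0.01 with the filter of 50 fragments and with the block. With TIP41 they were −0.62 to 0.37 for HSP104, −0.30 to 0.15 for SIS1, −0.29 to 0.36 for BTN2, −0.15 to 0.27 for CUR1, −0.33 to 0.35 for HSP82, −0.40 to 0.49 for HSP78 and −0.11 to 0.13 for KAR2. MGE1 with mtDNA loss ran from −0.07 to 0.08, and was 0.01 with the filter of 50 fragments and with only the 2 groups fitted. Against ρ+, SSA2 with TIP41 ran from −0.09 to 0.33, APJ1 with PDE2 from −0.04 to 0.50 and HSC82 with PDE2 from −0.26 to 0.07. For PDE2 against TIP41 the ranges were −0.05 to 0.19 for HSF1, −0.40 to 0.03 for SIS1, −0.52 to 0.00 for APJ1, −0.11 to 0.12 for KAR2 and −0.30 to 0.05 for LHS1, and KAR2 was 0.01 with RLE size factors and DESeq2 and 0.00 with no filter and with the block. SSA1 ran from −0.24 to 0.56 with mtDNA loss, −0.42 to 0.66 with PDE2, −0.83 to 0.24 for PDE2 against TIP41 and −0.30 to 0.77 for PDE2 against ρ+, UBI4 from −0.81 to 0.07 with PDE2 and FES1 from −0.05 to 0.14 for PDE2 against ρ+. Apart from these, the log2 difference of each of the 20 members with values by library kept its sign under each alternative. With 1 library left in a group, its spread was taken to equal that of the other groups.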
